A study of Acipenser sturio with 24 samples.

Results

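The comparison set 3 libraries of early tailbud sturgeon embryos, at Nieuwkoop-Faber (NF) stages 23, 24 and 26, against 4 libraries of late tailbud embryos, at NF stages 29, 32, 35 and 36. NF stages are the frog staging scale that the labels apply to the fish. A component, which is a unit of an assembled transcriptome, was kept when its deposited value was 1 or more in at least 3 of the 7 libraries, and 46069 of 275906 components were kept. All embryos were Bester hybrids, a cross of beluga (Huso huso) and sterlet (Acipenser ruthenus), although their organism field gives Acipenser sturio. They were raised in 0.1 X MMR, a dilute saline, and total RNA of whole embryos was sequenced after ribosomal RNA had been depleted. No treatment or genotype differed between the windows, so the groups differ by stage. The series holds 24 stages with 1 library each, and the labels do not say how many embryos or clutches a library represents. The libraries of a window are therefore neighbouring stages and not repeats of a stage, and each SD and p-value below includes the development that took place within a window.

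At tailbud stages the neural tube of a vertebrate embryo has closed, and the body lengthens from a growth zone at its tail end while somites, the blocks that give muscle and skeleton, are added in sequence. The late tailbud is the time at which organ rudiments such as heart, kidney tubules and sense organs begin to differentiate and the embryo approaches hatching. Sturgeon eggs cleave completely, as frog eggs do, and the early embryo runs on RNA laid down by the mother until its own genome takes over. The file does not pair components with genes, so no pathway or tissue marker could be examined, the label "tailbud" could not be checked against marker genes, and 4 components are named by their identifiers. In whole embryos, fewer cells of a type and less RNA per cell cannot be told apart.

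The deposited values were normalized abundances, whose summed value ran from 500748 at stage 24 to 679612 at stage 36 over the 7 libraries. Absolute depth is unknown, but the steps of the low values gave the relative depth. Relative to stage 36, the estimated reads of stages 23, 24 and 26 were 1.59, 1.28 and 2.14, and those of stages 29, 32 and 35 were 0.513, 1.66 and 1.76. The shallowest pair, stages 29 and 36, thus lay in the late window. Residuals about a smooth stage curve over all 24 libraries divided them into a set A of 17 libraries and a set B of 7, a division that the labels do not record. Of the tailbud libraries, stages 24, 29 and 36 belonged to set B and the other 4 to set A, so each window held libraries of both sets. With window as a term of the model, 2099 of 46069 components (4.56%) differed between the sets (limma, adjusted p threshold 0.05), 306 (0.664%) higher and 1793 (3.89%) lower in set B. The sets were drawn from these same values, so a difference between them was built in. These counts describe its size and are no test of the division. The count of calls, the detected components and the earlier levels of the called components are given also within set A or with set as a term.

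Among abundant components, most of the variation between the 7 libraries followed stage order. Over the 2717 components with a mean value of at least 20, the first principal component held 61.5% of the variance and placed stages 23, 24 and 26 at -0.57, -0.43 and -0.22 and stages 29, 32, 35 and 36 at 0.16, 0.21, 0.38 and 0.48. The second held 21.5% and separated the set B libraries (0.41 to 0.45) from those of set A (-0.42 to -0.16). The sets had been drawn from these same values, so that separation is no independent result. On the first component, stage 26 was the early library closest to the late window. Its Spearman correlation with stage 32, across all kept components, was 0.731, against 0.766 with stage 23, both of its own set. With stages 29 and 36, of set B, stage 24 of that set correlated higher (0.593 and 0.553) than stage 26 (0.557 and 0.526). Pairs of different sets within a window correlated lower than stages 26 and 32. They stood at 0.686 and 0.721 in the early window and at 0.575 to 0.673 in the late one. Across all kept components, stage order was thus not the only division among the libraries. Components are not independent, and these correlations describe the libraries.

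Late tailbud embryos differed from early ones in 1830 of 46069 components (3.97%), of which 1018 (2.21%) were higher and 812 (1.76%) were lower in the late window (limma on log2(scaled value + 1), Benjamini-Hochberg adjusted p threshold 0.05). For the risen components the median of the log2 changes was 1.78, with a median SE of 0.355, which is a 3.43-fold increase on the value + 1 scale. For the fallen ones it was -1.66, with a median SE of 0.327, which is 3.16-fold. All tested components together had a median of -0.035. A change of at least 4-fold was held by 386 of the risen and 231 of the fallen components, and such changes were held by 1.04% of all tested components upward and 0.571% downward. The early and late libraries did not overlap for 1016 of the 1018 and 810 of the 812, and for 18.0% of all tested components (9.49% with the late window higher and 8.50% with it lower). Without a test, 3016 components (6.55%) lay past 2-fold upward and 2171 (4.71%) past 2-fold downward, so most shifts of that size did not pass the threshold.

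**Figure D1:**
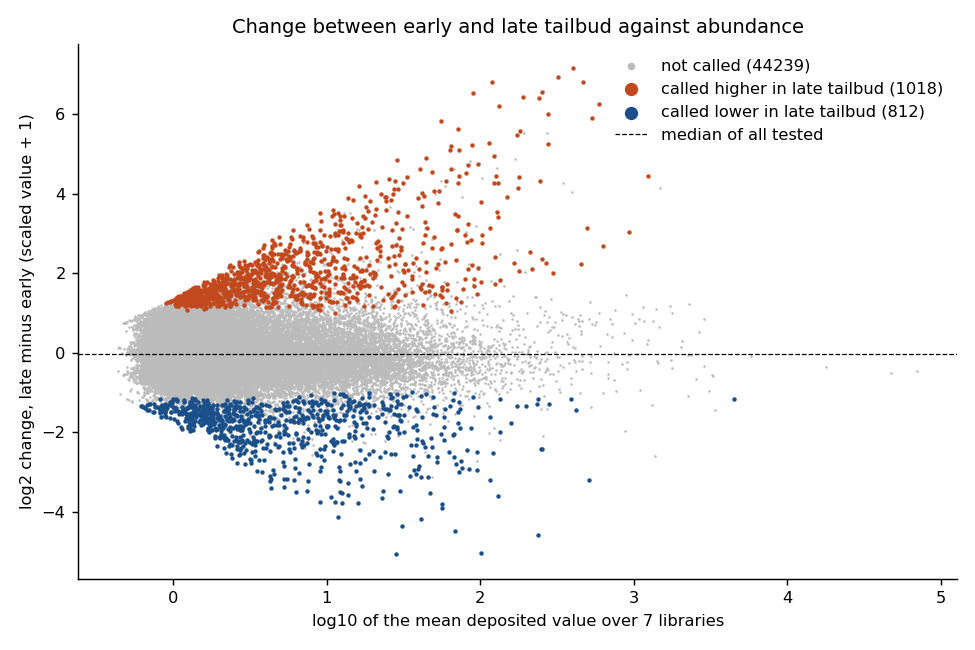
Each point is 1 of 46069 components, with the log10 mean deposited value over 7 libraries on the x axis and the log2 change, late minus early, on the y axis. The 1018 components called higher reach 7.16, the 812 called lower reach -5.07, and the dashed line marks the median of -0.035.

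The number of calls depended on single libraries, while the split between higher and lower depended on the scaling. Without stage 23 there were 216 calls, without stage 24 there were 292, without stage 32 there were 1172, without stage 35 there were 653 and without stage 36 there were 865. With set as a term 2792 components were called (6.06%), 1535 (3.33%) higher and 1257 (2.73%) lower, and within set A alone 778 (1.69%), 465 higher and 313 lower. Within set B, 1 early library stood against 2 late ones, so only the size of the change is given. The median log2 change there was 1.86 for the 1018 risen and -1.92 for the 812 fallen components. These had been called with the set B libraries among the 7. A difference of the window change between the sets was called for 0 components (0.00%) by limma. In that fit 1 library stood for the early window of set B, so the lack of calls says little. Of the calls, 55.6% were higher in the late window, and this share was 72.0% with values as deposited, 63.1% with column totals, 67.1% with ratios over components at 5 or more, and 43.4% with a trimmed mean. More rises than falls is therefore not a feature of every scaling.

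**Figure D2:**
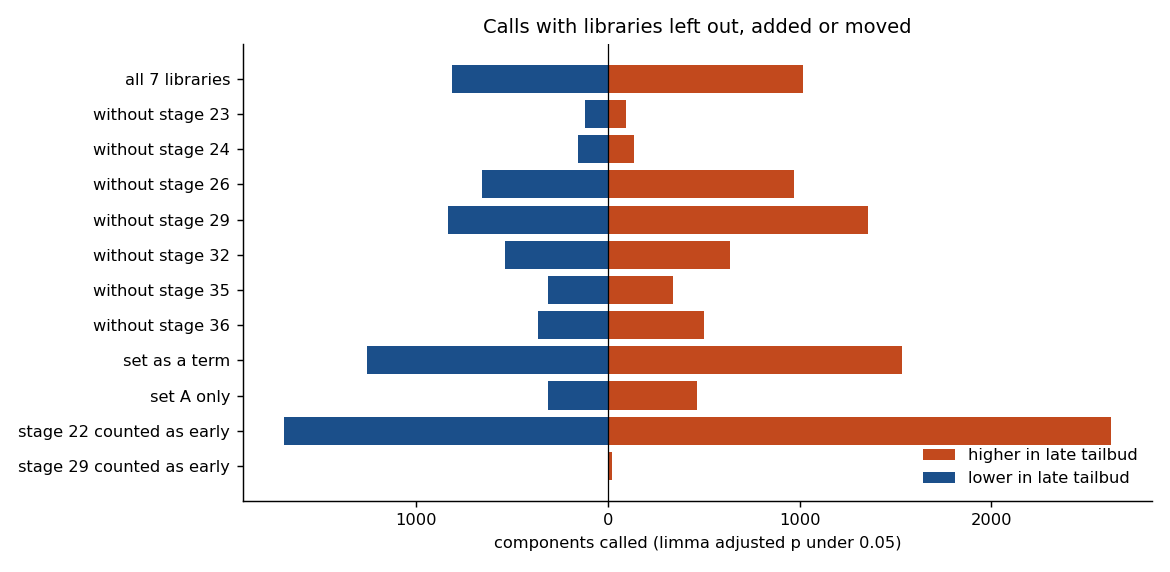
Bars give the number of components called higher (orange, to the right) and lower (blue, to the left) in late tailbud libraries for the 7 libraries, with 1 library left out, with set as a term, within set A, and with stage 22 or 29 counted as early. Calls fall from 1830 to 216 without stage 23 and rise to 4315 when stage 22 joins the early window.

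The edge between the windows also bore on the count. With stage 22 added to the early window 4315 components were called, 2625 higher and 1690 lower. That setting moved the edge and also added a library, and these cannot be told apart here. With stage 29 moved to the early window 21 were called, 19 higher and 2 lower. Stage 29 resembled the later stages in the components called. On a line from the mean of stages 23 and 24 to the mean of stages 32, 35 and 36, the median risen component stood at 81.7% of the way at stage 29 and the median fallen component at 91.0%. At stage 26 the same components stood at 26.4% and 22.5% of the way. These positions describe components chosen for their difference between the windows.

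The 4 named components were chosen for the largest changes among calls whose windows did not overlap. Their lack of overlap and their passing of the threshold therefore follow from the choice. The 2 components with the highest change were near 0 up to stage 24 and abundant from stage 29. comp230943_c0 had deposited values of 0.80, 0.87 and 15.2 at stages 23, 24 and 26, and of 279, 726, 1161 and 633 at stages 29, 32, 35 and 36. All 4 late libraries lay above all 3 early ones, and stage 26 was the only early library above 1. The mean was 5.64 ± 8.32 (SD, n = 3) in the early and 700 ± 363 (SD, n = 4) in the late window. On the log2 scale it was higher by 7.16 (SE 0.780; adjusted p = 0.00384, limma). In the 17 libraries before stage 23 it ranged from 0 to 0.78, with a median of 0.

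comp124925_c1 followed nearly the same course. Its values were 0.84, 0.55 and 17.1 in the early libraries and 315, 450, 688 and 770 in the late ones, in stage order. The windows did not overlap, and the deposited value was higher at each step from stage 24 on. The means were 6.16 ± 9.47 (SD, n = 3) and 556 ± 210 (SD, n = 4). The late window was higher by 6.94 on the log2 scale (SE 0.774; adjusted p = 0.00388, limma). The component had stayed between 0 and 0.79 at all earlier stages. Within set A, 2 against 2 libraries, the log2 changes of the pair were 7.30 and 6.48 and did not pass the threshold (limma adjusted p = 0.137 and 0.177).

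The 2 components with the lowest change were high in the neurula and low at the last stages. comp253891_c0 had values of 84.6, 72.3 and 35.4 at stages 23, 24 and 26, and of 4.86, 1.10, 0.19 and 0.18 at stages 29, 32, 35 and 36. It was lower at every step, with no overlap between the windows. The means were 64.1 ± 25.6 (SD, n = 3) and 1.58 ± 2.23 (SD, n = 4), and the log2 change was -5.07 (SE 0.519; adjusted p = 0.00266, limma). Through stage 13 it stood at or under 0.17. It was then 0.61 at stage 13.5, 7.72 at 15, 32.5 at 18 and 81.0 at 22.

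comp272756_c1 appeared earlier. It lay between 0.63 and 3.68 from stage 0 to stage 12, stood at 66.1 at stage 12.5 and at 523 at stage 15, and reached its highest value of 604 at stage 16. It was still at 483 at stage 22, then 369, 194 and 107 in the early tailbud libraries, and 19.8, 7.22, 2.44 and 3.36 in the late ones. The late values at stages 35 and 36 were back within the range of stages 0 to 12. The means were 224 ± 133 (SD, n = 3) and 8.20 ± 7.98 (SD, n = 4), which differed by -5.02 on the log2 scale (SE 0.586; adjusted p = 0.00384, limma). Within set A the changes of the fallen pair were -5.22 and -5.34, both past the threshold.

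**Figure D3:**
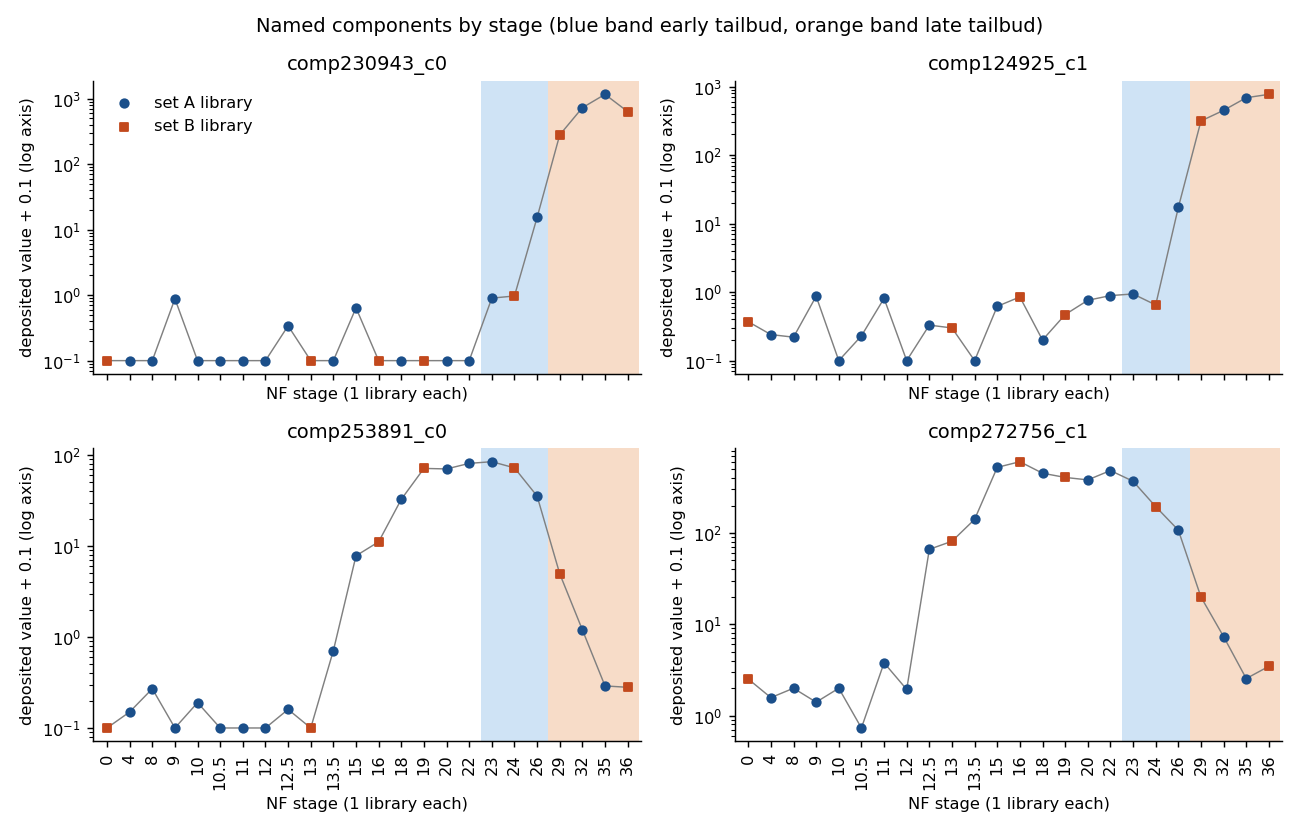
Deposited value plus 0.1, on a log axis, of the 4 named components at each of 24 NF stages, 1 library each, with circles for set A and squares for set B. comp230943_c0 and comp124925_c1 leave the baseline at stage 26, while comp253891_c0 and comp272756_c1 rise in the neurula and fall through the tailbud bands.

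The named components stood at the ends of a broader distribution. Among the 25 components with the highest log2 change (4.84 to 7.16), the mean value ran from 0.133 to 23.4 in the early and from 50.3 to 1035 in the late window, and 18 had never reached 1 before stage 23. Among the 25 with the lowest change (-5.07 to -3.39), the mean value ran from 10.1 to 503 in the early window. In the late window it ran from being listed at 0 to 39.5. All 25 of these had been at 1 or more in every library from stage 18 to stage 22.

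Many of the components that rose in the late tailbud had not been detected at a value of 1 before. Of the 1018, 577 (56.7%) had not reached a value of 1 in any of the 17 libraries before stage 23, against 10535 (22.9%) of all tested components. At stage 22 only 262 (25.7%) of the 1018 were at 1 or more, against 61.8% of all tested. The earlier libraries did not enter the fit, although stage 22 borders the early window. Among components called higher within set A, 259 of 465 (55.7%) had not reached 1 before stage 23. The filter bears on this count, since 397 of the 1018 reached 1 in late libraries only and passed the filter through the window in which they were high. Of the 283 risen components at 1 or more in all 7 libraries, 25 (8.83%) had not reached 1 before stage 23, against 1.68% of the 15995 tested components with that property.

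Counting the stage from which every later library stood at 1 or more, it was stage 26 for 172 of the 577 (29.8%) and stage 29 for 323 (56.0%), and stage 23 or 24 for 25 and 38. After stage 29 it was reached by 17 more, and 2 were not at 1 at stage 36. Of all 10535 tested components under 1 before stage 23, 842 (7.99%) had this onset at stage 26 and 1128 (10.7%) at stage 29. A further 2392 (22.7%) had it only at stage 36, against 4 of the 577. No such onset was found for 3375 (32.0%), which were under 1 at stage 36. The 577 were called as higher from stage 29 on, which favours an onset by then, so these counts are a description. The library at stage 29 had the fewest reads, so 1 read is worth the most there, and the part of this in the count at stage 29 was not tested.

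A smaller share of the risen components had been present from stage 0 on, the time of maternal RNA. A value of 1 or more in all 7 libraries of stages 0 to 11 was held by 212 of the 1018 (20.8%), close to the 21.8% of all tested components. Their median level, as the mean over stages, was 6.90 at stages 0 to 11, 2.15 at stages 18 to 22, 3.65 in the early tailbud and 20.5 in the late tailbud. In 141 of the 212 the level at stages 18 to 22 was under 50% of that at stages 0 to 11, and in 173 the late tailbud level was at least that of stages 0 to 11. Of all 10035 tested components present throughout stages 0 to 11, 3969 were under 50% at stages 18 to 22 and 4337 reached that level in the late tailbud. The 212 were chosen for being lower in the early than in the late tailbud, and stages 18 to 22 border the early window. A further 592 (58.2%) were under 0.5 throughout stages 0 to 11, against 57.7% of all tested components, with medians of 0.0114 at stages 0 to 11, 0.0925 at stages 18 to 22, 0.435 in the early and 5.03 in the late tailbud.

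Components that fell in the late tailbud had mostly risen in the neurula. Between stages 10 to 12 and stages 18 to 22, libraries that did not enter the fit, their median log2 difference was 1.89 (quartiles 1.01 and 3.17), and 612 of the 812 (75.4%) stood at least 2-fold higher. Over all tested components the median was 0.65 and the share 34.4%, and over the risen components these were 0.033 and 6.78%. Within set A the median of the 313 fallen components was 2.44, and with set as a term that of the 1257 was 1.76. Among components at 1 or more in all 7 libraries the fallen had a median of 2.48 and all tested 0.93. Stages 18 to 22 border the early window, the window in which the fallen components were high by their choice.

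**Figure D4:**
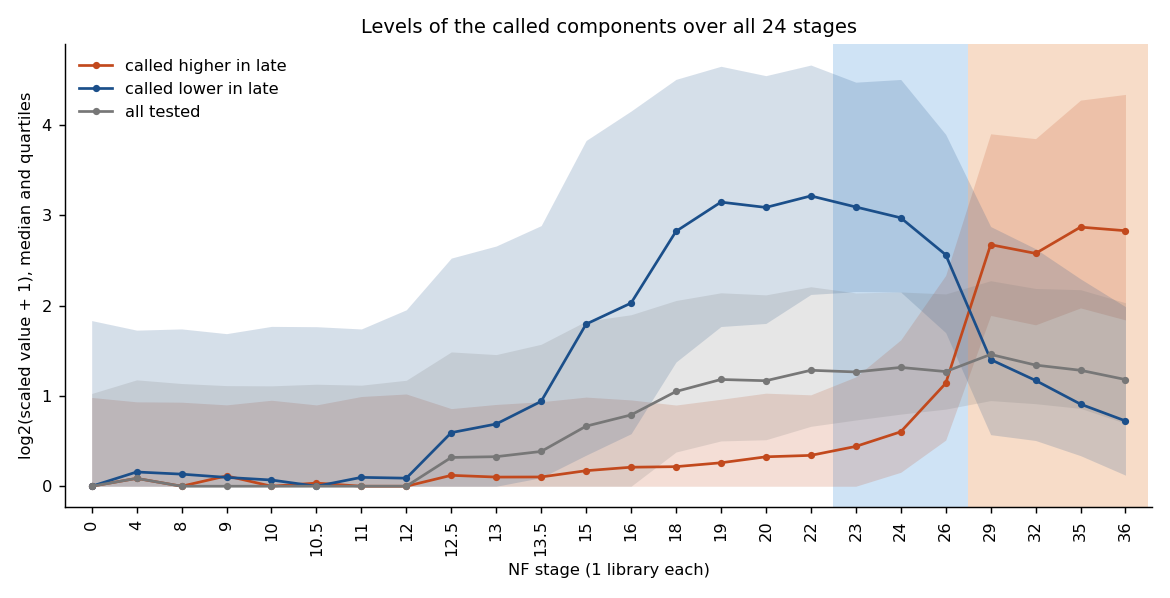
Lines give the median, and bands the quartiles, of log2(scaled value + 1) at each of 24 NF stages for the components called higher (orange), called lower (blue) and all tested (grey), with libraries scaled over all 24. The blue median climbs from 0.09 at stage 12 to 3.21 at stage 22 and is 0.72 at stage 36, while the orange median is 0.34 at stage 22 and 2.83 at stage 36.

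The fallen components were divided by their presence at stages 0 to 11, with shares not far from those of all tested components. Of the 812, 435 (53.6%) were under 0.5 throughout stages 0 to 11, against 57.7% of all tested. Their lasting presence at 1 or more started by stage 13.5 for 69 of them, at stage 15 for 59, at stage 16 for 47, at stage 18 for 99, at stage 19 for 62, and at stages 20 to 23 for 99 more. All 812 stood at 1 or more at stages 23, 24 and 26, so an onset by stage 23 was given and these counts are a description. The median level of the 435 was 3.43 at stages 18 to 22, 4.18 in the early and 0.60 in the late tailbud. There 288 of the 435, chosen for being low in that window, averaged under 1 and 70 were under 0.5 in all 4 libraries. Of all 26588 tested components under 0.5 throughout stages 0 to 11, 6589 averaged under 1 there and 107 were under 0.5 in all 4. Over all 24 stages, 445 of the 812 (54.8%) had their highest scaled value in a library of stages 13 to 22 and 329 (40.5%) in the early tailbud. Over all tested components these shares were 32.2% and 17.8%, and a further 40.4% had their highest value in the late tailbud. The call itself keeps a highest value in the late window out of the 812. The shares are therefore unlike, and the higher ones of the 812 are no result by themselves.

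Another 219 of the fallen components (27.0%) were present at 1 or more throughout stages 0 to 11, against 21.8% of all tested. Their median level was 12.4 at stages 0 to 11, 23.0 at stages 18 to 22, 20.8 in the early tailbud and 6.51 in the late tailbud. In 31 of the 219 the level at stages 18 to 22 was under 50% of that at stages 0 to 11, against 3969 of all 10035 tested components with that presence. In 64 the late tailbud level was at least that of stages 0 to 11, against 4337 of the 10035. Under 0.5 in all 4 late libraries were 2 of them.

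The share of a library's summed value that the risen and the fallen components held crossed between stages 26 and 29. The risen components made up 0.323% at stage 22, then 0.409%, 0.620% and 1.18% in the early tailbud libraries and 4.38%, 4.77%, 6.88% and 7.79% in the late ones, in stage order. The share was higher at each step. The fallen components made up 2.11% at stage 0 and 6.23% at stage 20, then 5.60%, 5.28% and 4.13% in the early tailbud and 2.07%, 1.58%, 1.31% and 1.19% in the late tailbud libraries. Components chosen for their change must change their share, so these shares give its size and are not tested. The risen components that had been present throughout stages 0 to 11 held 2.74% at stage 36, those under 0.5 throughout held 1.71%, and the 214 in neither class held 3.34%.

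**Figure D5:**
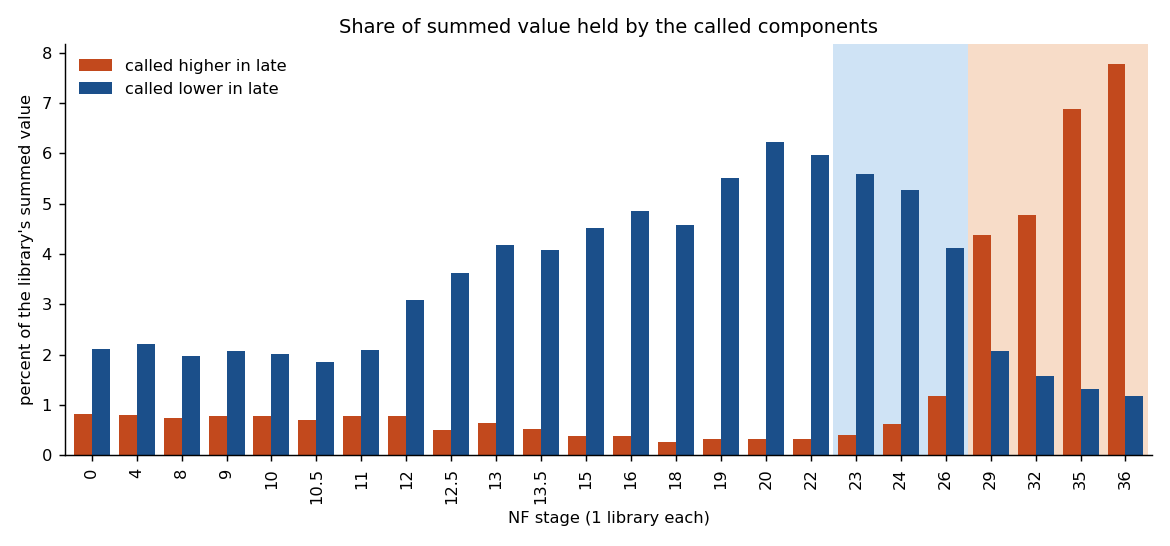
Bars give the percent of each library's summed value held by the 1018 components called higher (orange) and the 812 called lower (blue) in late tailbud, at each of 24 NF stages. The blue share is highest at stage 20 with 6.23%, and the orange share exceeds it from stage 29 on and reaches 7.79% at stage 36.

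Calls were more frequent among abundant components. Of 17703 components with a mean value from 1 to 2 over the 7 libraries, 2.24% were called. The share was 5.28% of 10152 components from 2 to 5, 7.28% of 7133 from 5 to 20, 11.4% of 2292 from 20 to 100, and 15.3% of 425 at 100 or more. In the last class 45 were higher and 20 lower in the late tailbud. No source used here states whether the values are already divided by transcript length, and the pseudocount of 1 limits the change that low components can show. Of the 537 components that reached 1 in early libraries only, 220 (41.0%) were called lower, and such components passed the filter through the early window. Of the 4511 that reached 1 in late libraries only, and passed through the late window, 397 (8.80%) were called higher. To pass the filter, an early-only component had to be at 1 or more in every early library. A late-only component could miss 1 late library. The filter was thus stricter for the early-only class, so the counts and called shares of these classes are not directly comparable. Of the 15995 components at 1 or more in all 7 libraries, 283 were higher and 346 lower. Together these are 3.93%, close to the 3.97% of all tested components.

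The most abundant components of the windows were largely shared. Of the 100 components with the highest mean in each window, 71 were shared, and of the 10 highest 7 were shared. Among the 129 components in either list of 100, 12 were called higher and 9 lower, which is 16.3%. This is near the 15.3% of the 425 components with a mean of 100 or more, against 3.97% of all tested components. Membership in either list also favours components that moved between the windows, so the share is a description. The most abundant component was the same in all 7 libraries, at values from 57636 to 89091, and its log2 change was -0.44 (SE 0.327; adjusted p = 0.517, limma). The share of summed value held by the 10 most abundant components was 34.4%, 33.7% and 30.0% in the early libraries and 28.5%, 26.1%, 26.2% and 22.8% in the late ones. The windows did not overlap. The means were 32.7% ± 2.36 (SD, n = 3) and 25.9% ± 2.34 (SD, n = 4), with an exact two-sided permutation p of 0.0571, the smallest that 3 against 4 libraries allow (0.0800 after adjustment over 7 library measures).

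More components were detected in the late libraries, by an amount that differed between scalings and library sets. The number at a value of 1 or more was 39583, 39824 and 39328 in the early libraries, and 60863, 47483, 42896 and 55234 in the late ones. The highest 2 belonged to stages 29 and 36, the libraries with the fewest reads. The mean difference was 12041 (exact two-sided permutation p = 0.0571), but 5734 within set A, 4072 with scaled values (exact permutation p = 0.229) and 3638 with stage 29 counted as early. At a value of 5 or more the means were 9122 ± 738 (SD, n = 3) and 10493 ± 409 (SD, n = 4), again without overlap (exact permutation p = 0.0571). The part of depth in these differences was not tested.

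Steps between neighbouring libraries of the same set were counted within and across the windows. Between set A libraries, at least 4-fold differences were held by 397 components from stage 23 to 26 (325 up and 72 down), 486 from stage 26 to 32 (302 up and 184 down) and 216 from stage 32 to 35 (74 up and 142 down). The step from stage 26 to 32 passes over stage 29 and spans more stage numbers than the other set A steps, so its count is not directly comparable. Between set B libraries, 1247 differed from stage 24 to 29 and 914 from stage 29 to 36, steps that each involve the shallow library of stage 29. Across the sets but within a window, 642 components differed from stage 23 to 24 and 754 from stage 24 to 26. In the late window such steps held 1158 from stage 29 to 32 and 951 from stage 35 to 36. From stage 26 to 29, across both sets and windows, 1525 differed. A step sets a single library against another, without replicates. Over all 7 libraries in stage order, which mixes the sets, 105 of the 1018 risen components were higher at every step and 44 of the 812 fallen ones lower at every step. Within set A, with fewer steps, 663 of the risen (65.1%) and 393 of the fallen (48.4%) kept to their direction at every step. Within set B, with fewer steps still, 721 (70.8%) and 547 (67.4%) did. Each of these orders holds a step that crosses the edge between the windows, so these counts partly follow from the call.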

How the data were processed

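RNA of whole embryos was measured at 24 stages, of which 7 tailbud libraries entered the comparison. Bowtie, RSEM, Trimmomatic and CASAVA 1.8.2 appear in the submitters' processing notes, with no role or order stated, and no assembler is named. The deposited signal per component is an abundance normalized before deposit. It was therefore not treated as a count. It has 2 decimals, 0.458% of values above 0 are whole numbers, and no source used here says whether it is FPKM or TPM. All 24 columns were mapped through the labels.

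Each library was divided by its median ratio to the mean of all 7, taken over 51543 components that were above 0 in each. The divisor was largest at stages 36 and 29 (1.18 and 1.16), the libraries with the fewest reads, and the part of depth in it was not tested. In R 4.3.3, limma 3.58.1 compared the windows on the log2 of the scaled value plus a pseudocount of 1, with robust, trended empirical Bayes, at a Benjamini-Hochberg adjusted p of 0.05 over all 46069 components, and the procedure was tested on simulated data. The filter kept 11308 components at 1 or more in exactly 3 libraries, which had a median of 1.16 for the lowest of those 3 values, and left out 20943 with 2 such libraries, whose next highest value had a median of 0.75. Levels before stage 23 used scaling over all 24 libraries for log2 values and deposited values elsewhere. Relative depth came from the modal ratios of low values in 21 library pairs, all within 0.1 (log2) of the fitted values. The sets came from the first principal component of residuals about a natural cubic spline with 4 degrees of freedom, over 2258 components with a mean of at least 20.

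Components were named from both ends of the log2 changes, 2 risen and 2 fallen, among those past the threshold, with no overlap between windows and a mean of at least 5 in the higher one. The comparison, classes and tests were chosen with earlier results of these data known. Nothing says that libraries came from separate clutches, so p-values measure the spread between these libraries. Alternatives covered scaling, pseudocount, filters, window edges, sets and left-out libraries.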

Additional observations from a re-analysis of the deposited data

Results flagged for a closer look

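In none of 14 combinations of the late window with a library measure or a named component did 1 library stand far enough from the other 3 to be listed (Dixon's gap over range at the 95% level). Chance lists about 1 in 20 such groups.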

How the results depend on the processing

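The count of 1830 calls stayed within 1.5 times in 9 of 25 alternatives. It was 2792 with set as a term, 778 in set A, 0 in set B, 4315 with stage 22 as early, 21 with stage 29 as early, 5659 with all 24 libraries in the fit, 943 without a filter, 1074 at 5 or more in at least 3 libraries, 728 at 1 or more in all 7, 3004 with a linear term in stage order and 47 with a minimum fold of 2. Leaving out 1 library gave 216 to 2190. The filters alter the number tested, so their counts are read as shares, against 3.97% in the main fit. The share was 0.378% of 249653 components without a filter. It was 9.99% of 10751 at 5 or more in at least 3 libraries, and 4.55% of 15995 at 1 or more in all 7. For the other changes the cause was not tested. The median log2 difference of -0.035 was 0.11 with values as deposited, -0.10 with the trimmed mean, 0.048 with ratios over components at 5 or more (added after seeing the data), -0.10 in set B, 0.032 with stage 29 as early, -0.11 at 5 or more in at least 3 libraries and -0.10 at 1 or more in all 7, and -0.065 to -0.0056 with 1 library left out. Late minus early detection was 12465 components and the difference in the share of the top 10 was -7.24 percentage points with stage 22 as early (exact permutation p = 0.0286 for both, 4 against 4 libraries), and 8959 to 14948 and -8.10 to -5.72 with 1 library left out. The 4 named components kept their direction in all 19 alternatives each, and so did all 1018 risen and 812 fallen components. The windows did not overlap for 1016 of the 1018 and 810 of the 812, so the call itself largely fixed their direction. The 4 named components were also chosen for the largest changes, so their kept direction is no separate result either. Their log2 changes were 7.51, 8.05, -5.20 and -4.81 in set B, where 1 early library was compared and no component was called, and 6.07, 5.67, -4.63 and -4.63 with stage 29 as early, in the order of the report. None of these passed the threshold, nor did the risen pair in set A (7.30 and 6.48). Components near a value of 1 rest on few reads, most of all at stage 29, and the absolute number is unknown. Count models were left out, as the deposited values are normalized abundances, and libraries could not be paired.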

Other observations

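Identifiers that share a comp number come, by the usual form of such names, from the same assembly graph. Among the tested components, 5980 comp numbers held 2 or more, which made 11913 pairs. Their changes between the tailbud windows had the same sign in 60.5% of pairs, against 50.1% of all pairs of tested components. Where both members of a pair were called, which held for 120 pairs, 109 changed in the same direction and 11 in opposite directions, the latter in 8 comp numbers. Over all pairs of called components 50.6% share a direction. Of the named components, comp230943_c0 and comp272756_c1 each shared their comp number with another tested component, whose change is not reported here. Whether members of a pair share sequence or reads was not examined, and these are descriptions with no test.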
